A study of Drosophila melanogaster with 3 samples.

Results

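The genes described here are 8 nuclear receptors of the ecdysone cascade, EcR, usp, Eip78C, Hr3, Hr4, Hr38, Hr39 and ftz-f1, taken by name out of 13945 protein-coding genes on 6 chromosome arms. All 8 symbols were found in the annotation. The binding peaks counted for a gene were those whose summit, the position of highest signal, lay between 1 kb upstream of the gene and its end. These were 54 of 10233 peaks of the reproducible list, the peaks that the authors kept because their ranks were repeated between replicates.

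The peaks came from chromatin immunoprecipitation and sequencing (ChIP-seq) of whole Drosophila melanogaster larvae, males and females pooled, in the wandering stage of the third instar. The transgenic strain, labelled 15T-GFP, carried h, the gene of the HES-family repressor Hairy, fused at its C terminus to GFP, and its chromatin was precipitated with an antibody against GFP. There were 3 biological replicates of this 1 group, so that no condition was compared with another and no test between groups was possible. A control library named in the labels was not analysed here, so a peak that does not depend on the fusion cannot be told apart from its binding, and in whole larvae binding confined to few cells may have gone uncalled.

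Ecdysone is the steroid hormone that times moulting and metamorphosis in insects. It acts through a heterodimer of the receptors EcR and Usp, which switches on a first set of regulators, and these control later genes, several of them nuclear receptors too, in waves around pupariation. Hairy binds DNA through a basic helix-loop-helix domain and represses its targets together with corepressors such as Groucho.

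The strongest summit of each receptor gene was the starting point for reading the sequence under the fusion. The stretches printed cover up to 100 bp on each side of it and are from the RefSeq genome, Release 6, the build of the peak files (dm6). They are in order of rank, from the strongest, where rank 1 is the reproducible peak with the highest signal value. The usp stretch is shorter because it stops at annotated UTRs. Those of EcR and Hr3 are not printed here. None of the 8 windows held a class B site (CACGTG) or a class C site (CACGCG), sites to which HES repressors bind, on either strand.
Eip78C, rank 62, chr3L:21253798-21253998, plus strand: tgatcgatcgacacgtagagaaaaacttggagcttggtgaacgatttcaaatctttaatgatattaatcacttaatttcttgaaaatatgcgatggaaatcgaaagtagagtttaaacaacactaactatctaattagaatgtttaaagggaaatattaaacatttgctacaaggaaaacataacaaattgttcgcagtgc
Hr4, rank 129, chrX:1951824-1952024, plus strand: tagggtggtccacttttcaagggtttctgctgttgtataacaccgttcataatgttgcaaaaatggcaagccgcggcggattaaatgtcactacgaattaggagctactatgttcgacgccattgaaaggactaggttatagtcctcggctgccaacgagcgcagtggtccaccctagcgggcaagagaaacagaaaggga
usp, rank 1991, chrX:2041387-2041460, plus strand: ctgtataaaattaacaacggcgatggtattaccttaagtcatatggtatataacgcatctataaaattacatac
Hr38, rank 2195, chr2L:20700669-20700869, plus strand: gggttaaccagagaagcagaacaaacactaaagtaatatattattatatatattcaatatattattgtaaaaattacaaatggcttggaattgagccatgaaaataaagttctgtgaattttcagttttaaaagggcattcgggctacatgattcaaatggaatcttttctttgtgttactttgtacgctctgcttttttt
ftz-f1, rank 2791, chr3L:18756552-18756752, plus strand: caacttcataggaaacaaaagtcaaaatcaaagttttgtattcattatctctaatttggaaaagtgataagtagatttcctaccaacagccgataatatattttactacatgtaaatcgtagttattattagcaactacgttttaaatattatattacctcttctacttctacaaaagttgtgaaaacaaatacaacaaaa
Hr39, rank 6215, chr2L:21237791-21237991, plus strand: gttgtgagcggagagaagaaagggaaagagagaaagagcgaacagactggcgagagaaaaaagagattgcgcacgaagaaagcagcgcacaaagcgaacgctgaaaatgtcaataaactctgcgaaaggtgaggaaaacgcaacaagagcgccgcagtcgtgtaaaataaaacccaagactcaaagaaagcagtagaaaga

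Class B and class C sites were found under weaker summits of Eip78C, Hr4, Hr38 and ftz-f1. These 5 stretches were chosen after the motif search, because they are the windows that held a class B or class C site. The capitals mark class B, class C or class A (CAGCTG) sites, the N-box (CACNAG, another site bound by HES proteins) and the half-site of nuclear receptors (AGGTCA), on either strand. The Eip78C stretch is short because it lies in a 5′ UTR.
Eip78C, rank 4385, chr3L:21240368-21240392, plus strand: aagcgcgcggCACGCGaacgctctg
Hr4, rank 1643, chrX:1950470-1950670, plus strand: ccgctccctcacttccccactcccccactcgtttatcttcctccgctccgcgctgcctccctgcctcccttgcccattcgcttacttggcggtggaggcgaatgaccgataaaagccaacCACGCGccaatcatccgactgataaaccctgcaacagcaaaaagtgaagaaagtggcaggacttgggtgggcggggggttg
Hr38, rank 6886, chr2L:20714589-20714739, plus strand: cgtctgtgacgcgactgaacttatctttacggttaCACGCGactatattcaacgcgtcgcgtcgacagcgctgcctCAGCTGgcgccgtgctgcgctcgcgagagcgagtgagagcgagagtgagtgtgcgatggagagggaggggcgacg
ftz-f1, rank 3782, chr3L:18759267-18759467, plus strand: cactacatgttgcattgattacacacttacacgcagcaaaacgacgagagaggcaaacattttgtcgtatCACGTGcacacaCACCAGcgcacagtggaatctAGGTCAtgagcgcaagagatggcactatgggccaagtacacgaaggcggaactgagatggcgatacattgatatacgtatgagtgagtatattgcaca
ftz-f1, rank 7733, chr3L:18790983-18791183, plus strand: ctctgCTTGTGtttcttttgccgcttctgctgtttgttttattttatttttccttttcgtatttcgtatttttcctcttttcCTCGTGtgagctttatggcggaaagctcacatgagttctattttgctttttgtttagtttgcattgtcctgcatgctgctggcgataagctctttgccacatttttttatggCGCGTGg

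Every receptor gene was bound, with 8 of 8 holding at least 1 reproducible summit, against 36.7% of all coding genes. Apart from usp these are long genes, and the share of bound genes was higher among longer ones. Of the coding genes at least as long as usp, the shortest of them at 3514 bp, 57.4% were bound. For the 7 others, all bound, the matching share among coding genes at least as long as Hr39 (22426 bp) was 70.0%. Those 904 long genes had a median of 2 summits, against a median of 7 at the 7 receptor genes.

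Replicates were compared through lists of equal length, the 10233 strongest of the 30000 peaks called in each, named top lists here. The 8 genes held 57, 62 and 58 summits in the top lists of replicates 1, 2 and 3, a mean of 59.0 ± 2.65 (SD, n = 3), and all 8 were bound in each. Of the 54 reproducible summits, 43 (79.6%) lay inside a top-list peak of all 3 replicates, against 70.4% of all reproducible summits. Where each replicate's own top-list summit had to lie within 100 bp the shares were 72.2% and 64.3%, and with the full replicate lists in place of the top lists they were 85.2% and 87.7%, lower at the receptor genes. The reproducible list was derived from the same replicates, so this recovery is not independent of it.

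**Figure D1:**
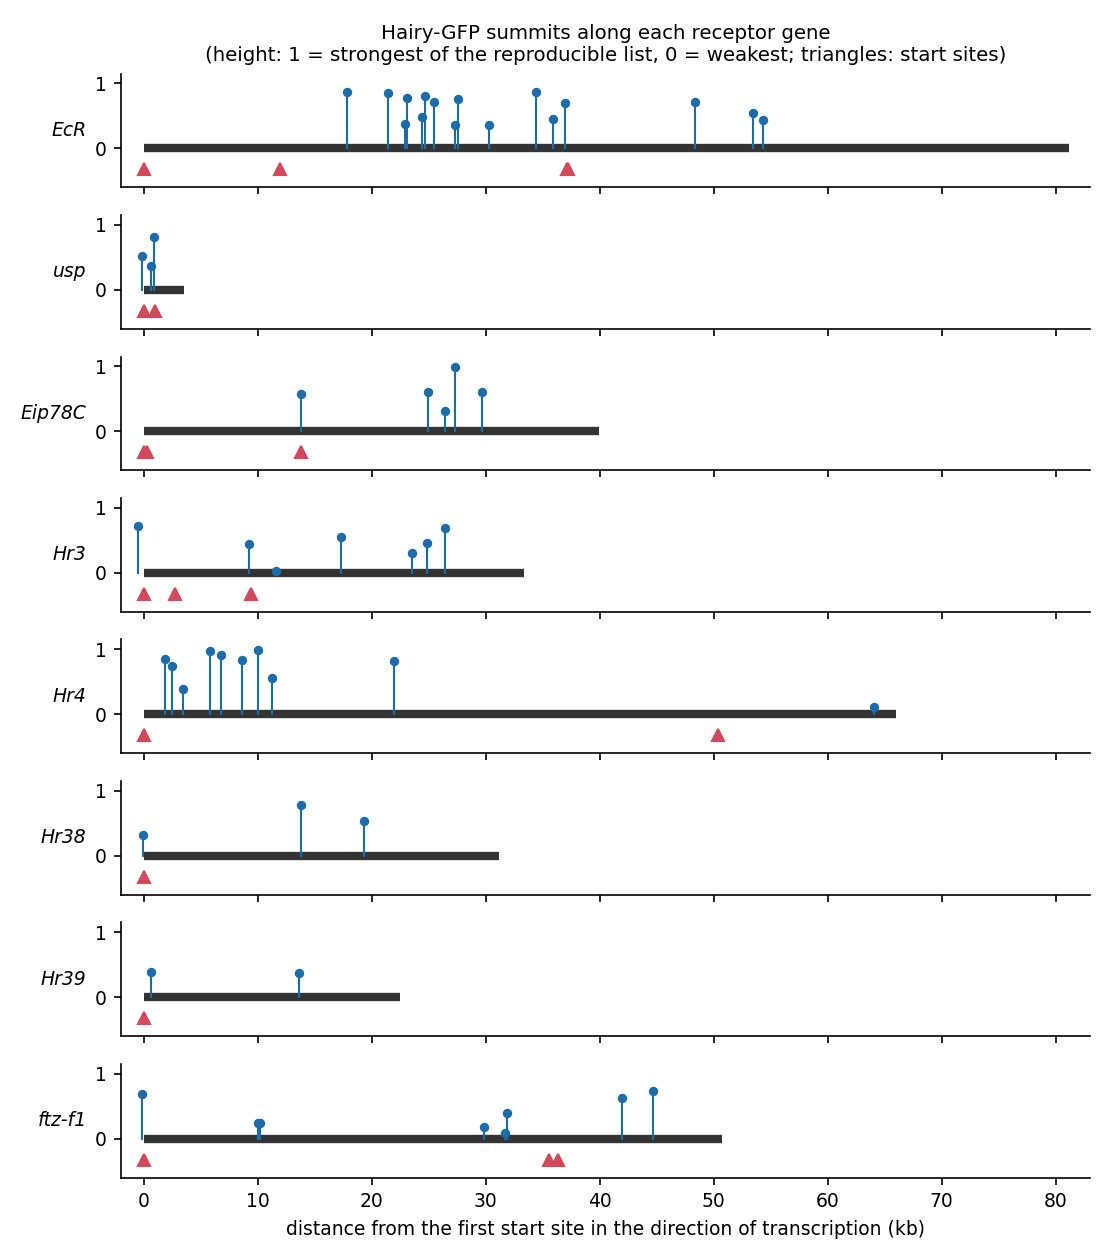
Reproducible Hairy-GFP summits along the 8 receptor genes. The x axis is the distance in kb from each gene's first start site in the direction of transcription, black bars are gene spans, triangles are start sites, and each stem is a summit whose height runs from 1 for the strongest peak of the reproducible list to 0 for the weakest. Summits of EcR gathered between the start of EcR-RD and that of EcR-RB, and those of Hr4 in the first part of the gene.

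EcR (FBgn0000546, 2R 6087873 to 6169087, minus strand) encodes the hormone-binding subunit of the ecdysone receptor, and usp (FBgn0003964, X 2038798 to 2042311, minus strand) its partner, the fly counterpart of vertebrate RXR. EcR had the most summits of the 8 genes, 16 in the reproducible list and 18, 21 and 17 in the top lists of replicates 1, 2 and 3. Of all coding genes, 31 (0.222%, EcR included) had at least as many. Among 107 genes with a span within 1.25-fold of its 81215 bp, the median was 4 summits and 9.35% had at least 16.

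EcR is transcribed from several start sites, and its A and B protein isoforms differ at the N terminus because they start at different ones. The binding was unevenly spread over them. The first 11958 bp, from the start of EcR-RA to that of EcR-RD and EcR-RE, which all encode the 849-codon form, held 0 reproducible summits and 1 in each top list. The next 25207 bp, up to the start of EcR-RB and EcR-RC, held 13 of the 16, with 11, 16 and 11 in the top lists. The remaining 3 lay downstream of all start sites.

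Upstream of EcR-RB and EcR-RC, which encode forms of 878 and 669 codons, a summit at 6132134 lay 212 bp from the start, and 293 bp from that of EcR-RG. The top lists had a summit 208, 215 and 203 bp from the first of these starts in replicates 1, 2 and 3. The start of EcR-RD and EcR-RE had no reproducible summit within 500 bp. Its nearest top-list summit lay 939 bp away in replicate 1, but 293 and 272 bp away in replicates 2 and 3.

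The largest group at EcR was 8 summits within 6154 bp (6141560 to 6147714), where the top lists held 6, 8 and 6. Most of the 8 lay in overlapping peaks, namely 6141560 with 6141770, 6144456 with 6144657, and 6145970 with 6146173. With overlapping peaks merged, the 16 EcR summits lay in 13 separate intervals. All 16 summits lay in introns, and all were in the 56758 bp intron that EcR-RA, EcR-RD and EcR-RE share. The strongest, at 6151272, ranked 1292 in the reproducible list and 1209, 1557 and 1423 in replicates 1, 2 and 3. The second, at 6134711, ranked 1403, and 1692, 1352 and 1271 in the replicates, and the third, at 6147714, ranked 1531, and 1986, 1286 and 1484. The replicate ranges of these 3 overlapped, so they were not resolved in order. The position of the third lay inside a top-list peak of replicate 1 only, although replicates 2 and 3 had the summits just ranked within 100 bp of it.

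The weakest EcR summit, at 6141770, ranked 6553 in the reproducible list, but 16970, 17068 and 18392 in the replicates, outside all 3 top lists by its own summit. It lay 210 bp from the summit at 6141560, in an overlapping peak. Both were close to the gene of an arginine tRNA (tRNA:Arg-ACG-1-1), at 395 and 605 bp from its start. They were the 2 of 54 receptor summits (3.70%) within 1000 bp of a tRNA gene, against 0.459% of all reproducible summits. For 9 of the 16 summits the nearest coding start was that of CG14589, a gene nested in EcR, and not one of EcR's own.

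At usp, 3 reproducible summits lay within 1008 bp around its 2 start sites. The strongest, at 2041449, lay 137 bp upstream of usp-RA in a 74 bp intron of usp-RB, and ranked 1991, with ranks of 2259, 2474 and 1449 in replicates 1, 2 and 3. The summit at 2042457 lay 146 bp upstream of usp-RB, a start that is shared with Actn, and ranked 4907, or 4125, 9028 and 3097 in the replicates. A weaker summit at 2041650, ranking 6431, lay 218 bp upstream of CG4313, which starts inside usp on the other strand. Of 1738 genes with a span within 1.25-fold of its own, 3.22% held at least 3 summits, and the median was 0. At these 3 summits usp cannot be told apart from its neighbours Actn and CG4313 as the gene concerned.

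Eip78C (FBgn0004865, 3L 21226609 to 21266503, plus strand) encodes a receptor related to the Rev-Erb family and to Eip75B. It held the strongest peak of the 8 genes, at 21253480 to 21254104. Its summit at 21253898 had a signal value of 2164.1 and ranked 62 in the reproducible list, and 62, 57 and 63 in replicates 1, 2 and 3. Signal values are the authors', have no stated scale and serve only to rank peaks within a list. Of all coding genes, 74 (0.531%, Eip78C included) held a peak ranked at 62 or better.

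The strongest Eip78C summit was intronic, 13551 bp downstream of the start of Eip78C-RB and 4122 bp upstream of CG43218, a gene nested in the same intron. It was one of 4 summits within 4769 bp, and the other 3 were far weaker. The second, at 21256294, ranked 3968, and 4876, 5945 and 3149 in the replicates, and the third, at 21251525, ranked 4028, and 5281, 3994 and 3448. The start of Eip78C-RB, which encodes a 392-codon form, had a summit 30 bp downstream, in the 5′ UTR, ranking 4385, with ranks of 4223, 4959 and 6883 in the replicates. The other starts, 13428 bp and more upstream and encoding 862 codons, had none within 500 bp in the reproducible list or in any top list.

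**Figure D2:**
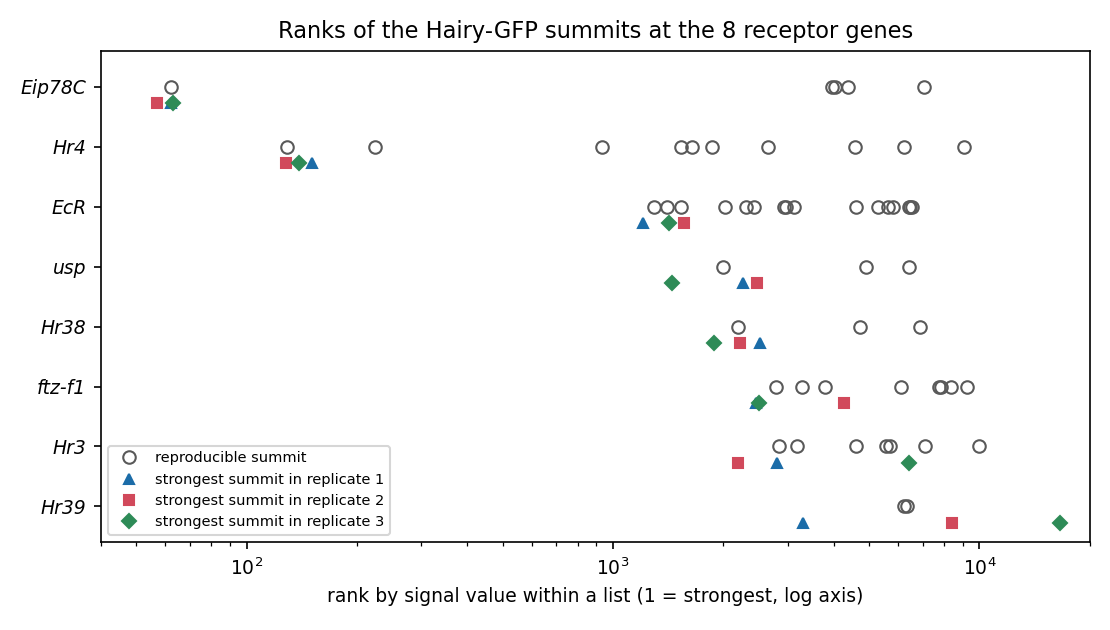
Rank of each reproducible summit at the 8 genes (open circles), on a log axis where 1 is the strongest peak of a list. Filled symbols are ranks in replicates 1, 2 and 3 of the summit nearest to each gene's strongest reproducible summit. That summit need not be the gene's strongest in a replicate. Eip78C, at 57 to 63, and Hr4, at 128 to 151, stood apart from each other and from the other 6 genes in every replicate, while the ranges of EcR, usp, Hr38, ftz-f1, Hr3 and Hr39 overlapped with their neighbours.

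Hr4 (FBgn0264562, X 1941940 to 2007956, plus strand), which encodes a receptor known to repress early ecdysone genes in prepupae, had 10 reproducible summits, with 10, 9 and 12 in the top lists. Its 2 strongest were at 1951924, ranking 129, and at 1947746, ranking 224. In replicates 1, 2 and 3 the first ranked 151, 128 and 139 and the second 225, 216 and 268, so each replicate kept them in this order. The next, at 1948694, ranked 934, and 936, 1042 and 917 in the replicates.

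The Hr4 summits formed the longest group of the 8 genes. Of the 10, 8 lay within 9359 bp (1943776 to 1953135), in an intron of 10387 bp near the beginning of the gene. The top lists held 9, 8 and 9 summits there. Only 1 further summit, at 1963922 with a rank of 1863, lay between this group and the start of Hr4-RE and Hr4-RF at 1992300. No reproducible summit lay within 500 bp of a start site, and the nearest to the first start was 1836 bp downstream. In replicate 3 alone a top-list summit lay 126 bp from it.

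Hr3 (FBgn0000448, 2R 10203995 to 10237348, minus strand) encodes the fly counterpart of vertebrate ROR, which in Drosophila represses early genes and activates ftz-f1. It had 7 reproducible summits, with 9, 8 and 8 in the top lists. Its strongest, at 10237862, ranked 2835, and 2799, 2191 and 6421 in replicates 1, 2 and 3 by the nearest summit. The last was well below the others, but the strongest replicate 2 peak holding this position ranked only 9434. The reproducible summit lay 514 bp upstream of Hr3-RD, just outside 500 bp (448 bp in the top list of replicate 2). It also lay 126 bp upstream of Hdc, a histidine decarboxylase gene transcribed the other way, so that the 2 genes cannot be told apart there.

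A weaker Hr3 summit, at 10228097, lay 140 bp upstream of the start of Hr3-RA, Hr3-RF and Hr3-RH, which it shares with CG46321. It ranked 5717, and 6679, 6323 and 4716 in the replicates. The second strongest, at 10210909, was intronic and ranked 3180, and 2946, 7909 and 4504 in the replicates. The next, at 10220045, was also intronic and ranked 4612, and 4829, 5790 and 3714 in the replicates, so their order differed between replicates.

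ftz-f1 (FBgn0001078, 3L 18750607 to 18801309, minus strand) encodes the competence factor of the mid-prepupal period, and has an upstream start for its longest form (ftz-f1-RB, 1027 codons) and downstream starts for forms of 803 and 853 codons. Of its 8 reproducible summits, with 7, 8 and 6 in the top lists, 1 lay 166 bp upstream of ftz-f1-RB, at 18801475. It ranked 3271, and 2115, 5348 and 1786 in the replicates. The downstream starts had their nearest summit 3718 and 4506 bp upstream, and none within 500 bp in any top list.

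The strongest ftz-f1 summit was intronic, at 18756652, and ranked 2791, with 2458, 4261 and 2496 in the replicates. It lay 2 bp from one end of its peak (18756650 to 18756852), so part of the window printed for it was outside the peak. The third, at 18759367, ranked 3782, and 3335, 4763 and 5901 in the replicates. It was the only one of the 54 receptor summits with a class B site, and its window also held an N-box and a receptor half-site. In replicates 1 and 3 the summit upstream of ftz-f1-RB ranked above the one at 18756652, and in replicate 2 below it.

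Hr39 (FBgn0261239, 2L 21237250 to 21259675, plus strand) encodes the closest relative of Ftz-F1, and Hr38 (FBgn0014859, 2L 20683462 to 20714588, minus strand) the fly counterpart of the NR4A receptors, which can pair with Usp. Hr39 had the fewest reproducible summits of the 8 genes, 2, and 2, 3 and 3 in the top lists, as usp did. The stronger, at 21237891, lay 641 bp downstream of its only start and ranked 6215, but 3296, 8432 and 16638 in replicates 1, 2 and 3. The other, at 21250884, ranked 6341, and 6349, 6923 and 6614 in the replicates, so the weaker summit was the steadier of the 2. In replicates 2 and 3, but not 1, the top list had a summit 57 and 64 bp from the Hr39 start.

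At Hr38, 3 summits were found in the reproducible list and in every top list. The strongest, at 20700769, lay in an intron 13819 bp past the start and ranked 2195, or 2513, 2214 and 1891 in the replicates. The second, at 20695258, was also intronic and ranked 4708, with 7448, 3680 and 4735 in the replicates. The third, at 20714639, lay 51 bp upstream of the only start and ranked 6886, or 8240, 7799 and 6127 in the replicates. The start-site summit thus ranked lowest of the 3 in every replicate.

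Ordered by their strongest reproducible summit, the genes ran Eip78C, Hr4, EcR, usp, Hr38, ftz-f1, Hr3 and Hr39. The replicate ranks compared here are those at this same position, which was not always the gene's strongest in a replicate. At Hr39, for example, it ranked 16638 in replicate 3, where the gene's other reproducible summit ranked 6614. The replicate ranks of Eip78C (57 to 63) and Hr4 (128 to 151) did not overlap each other or those of EcR (1209 to 1557). From EcR on, each gene's range overlapped that of the next. By this position EcR still ranked first and Hr39 last of these 6 in each replicate, while usp, Hr38, ftz-f1 and Hr3 changed places between replicates. The number of summits gave another order, led by EcR with 16 and Hr4 with 10, as the plot of summits against gene span shows.

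**Figure D3:**
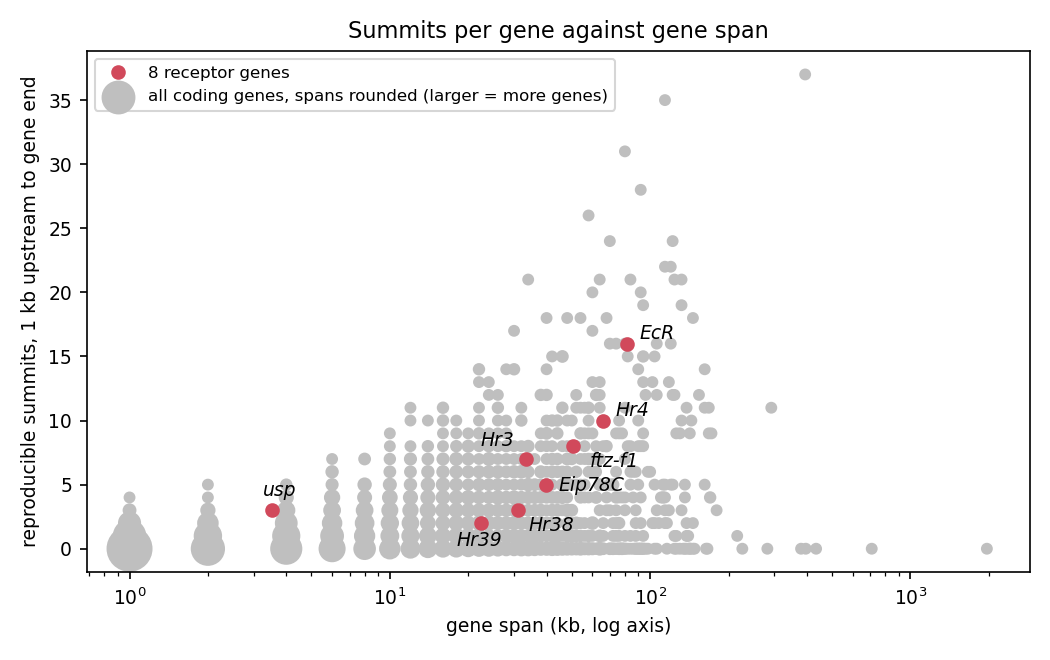
Reproducible summits per gene, from 1 kb upstream to the gene end, against gene span in kb on a log axis. Red points are the 8 receptor genes and grey points are all coding genes with spans rounded, larger where more genes share a value. EcR (16 summits) and usp (3) lay in the upper part for genes of their span, while Hr39 (2) and Hr38 (3) lay in the middle.

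Set beside genes of similar span, the other counts were less unusual. At least as many summits were held by 12.5% of 328 such genes for Hr3 (7 summits), 15.7% of 159 for Hr4 (10), 18.6% of 247 for ftz-f1 (8) and 30.1% of 306 for Eip78C (5). For Hr38 (3) the share was 43.3% of 335 genes, and for Hr39 (2) 53.3% of 428. Below the reproducible list, the pooled list of 30000 peaks from all 3 replicates held 34 further summits at EcR, 21 each at Eip78C and ftz-f1, 16 at Hr4, 9 at Hr39, 8 at Hr3, 2 at Hr38 and 0 at usp.

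Start sites were bound at 6 of the 8 genes, all but Hr4 and Hr39, where a reproducible summit within 500 bp of an own start counted. The same held for 29.8% of coding genes, a share not matched for the number of start sites, which was 1 to 4 at the receptor genes. The replicate top lists gave 6, 7 and 8 genes, a mean of 7.0 ± 1.0 (SD, n = 3), because the starts of Hr39 and Hr4 were reached in some replicates, as described above. Of the 19 separate start sites of the 8 genes, 8 had such a summit, against 29.1% of those of all coding genes. The EcR summit at 6132134 counted both for the start of EcR-RB and EcR-RC and for that of EcR-RG. Bound starts shared with Actn and CG46321 were included. Both starts of usp had a summit within 500 bp, and neither start of Hr4 did. At the other genes with several starts some were bound and some not: EcR-RA, the 862-codon starts of Eip78C, the start of Hr3-RC and Hr3-RI, and the downstream starts of ftz-f1 had no summit within 500 bp in the reproducible list or in any top list.

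Most binding was nevertheless far from starts. Of the 54 summits, 49 (90.7%) lay in introns, against 50.5% of all reproducible summits, and 30 (55.6%) lay more than 5000 bp from any coding start, against 24.2%. Within 500 bp of a coding start lay 9 (16.7%), against 39.7%. The rule takes summits from gene windows, and long genes have long introns, so a fairer setting is the 904 long genes. At the 7 long receptor genes 46 of 51 summits were intronic (90.2%), 30 were more than 5000 bp from a start (58.8%) and 6 were within 500 bp (11.8%). At all 904 long genes these shares were 84.5%, 38.5% and 23.6% of 3427 summits. The median distance to the nearest coding start was 5857 bp at the 7 receptor genes and 2997 bp at the 904.

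**Figure D4:**
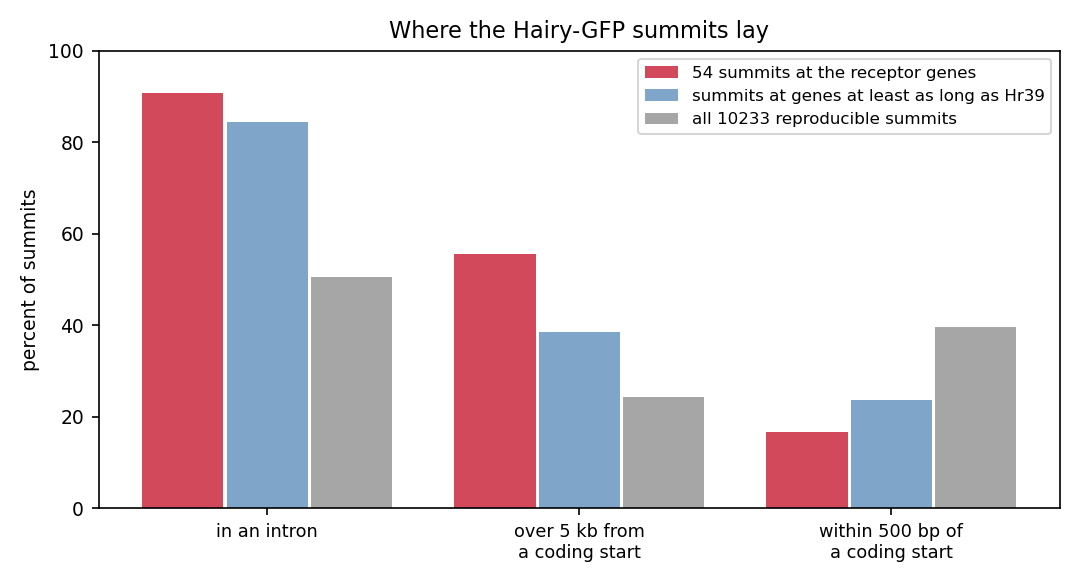
Percent of summits in an intron, more than 5000 bp from a coding start and within 500 bp of one, for the 54 summits at the receptor genes (red), 3427 summits at the 904 coding genes at least as long as Hr39 (blue) and all 10233 reproducible summits (grey). The red bars, at 90.7%, 55.6% and 16.7%, were nearer to the blue than to the grey ones. They include usp, which is too short for the blue set. Without usp the values were 90.2%, 58.8% and 11.8%.

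Some of these sites may concern a neighbour. For 22 of the 54 summits the nearest coding start belonged to another gene, 9 at EcR, 4 at Eip78C, 4 at Hr3 and 1 at each of the other 5 genes. In 6 places 2 summits lay 200 to 219 bp apart in overlapping peaks, so that the 54 summits lay in 48 separate intervals. The receptor summits were of middling to higher strength, with a median rank of 4480 against 5117 for the whole list, and 32 of 54 (59.3%) were above the median signal value.

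The search for 10 motifs covered both strands of the 100 bp on each side of a summit. Class C sites lay at 4 of 54 receptor summits (7.41%), against 6.24% of all reproducible summits, and class B sites at 1 (1.85%), against 2.11%. They lay at the starts of Eip78C-RB and Hr38, in the Hr4 intron group (rank 1643) and under 2 summits of ftz-f1. The weaker of these 2, at 18791083 (rank 7733), lay inside a top-list peak of replicate 3 only. Replicates 1 and 2 had no summit within 100 bp of it, and its class C site began 94 bp away. Class A sites, which proneural activators use, lay at 3 (5.56%), against 9.47%. The side on which the receptor summits fell changed with the window for all 3 classes: class C was at 9.26% against 11.7% within 200 bp, and within 50 bp class B was at 1.85% against 0.860% and class A at 5.56% against 4.72%.

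The N-box, whose pattern leaves a base open and so matches more sequences than class B or class C, lay at 16 of 54 (29.6%), against 20.3% of all. In the replicate top lists the receptor shares were 26.3%, 22.6% and 34.5%, a spread of 6.09 percentage points (SD, n = 3). The summit in the Hr4 intron group at 1953135 had 4 N-boxes in its window. GAGAG, the core of GAGA-factor sites, lay at 20 of 54 (37.0%), against 26.6%, and at 35.1%, 35.5% and 37.9% in the replicates.

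The half-site of nuclear receptors, AGGTCA, lay at 3 receptor summits (5.56%), against 3.53% of all, once each at EcR, Hr4 and ftz-f1. Its extended form AAGGTCA, which contains it and which Ftz-F1 binds, lay at none, against 1.34%. The promoter motifs DRE (TATCGATA) and Ohler 1 (GGTCACAC) also lay at none, against 3.00% and 2.12%, and ACACTG at 7 (13.0%), against 16.6%. With 54 windows, shares this small rest on a few summits. Mean GC content was 41.6% at the receptor summits and 38.4% over the whole list.

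Other nuclear receptor genes and genes of the hormone pathway were counted in the same way, each list beside the 36.7% of all coding genes. These lists were not matched for gene span, and Eip75B (113744 bp), br (89738 bp), tai (83434 bp) and Eip74EF (60654 bp) are long. Of 13 other nuclear receptor genes 8 were bound: Eip75B with 35 summits, Hnf4 with 9, knrl with 4, ERR with 3, Hr78 and Hr96 with 2 each, and svp and eg with 1 each. The 5 without a summit were Hr51, Hr83, tll, dsf and kni. Of 15 ecdysone-response genes that are not receptors 13 were bound, led by Eip74EF with 20 summits and br with 14. Cth and ImpL1 had no reproducible summit, but Cth had 1 in the top lists of replicates 1 and 2.

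Of 4 coregulators of nuclear receptors 3 were bound, the coactivator gene tai with 21 summits, the corepressor gene Smr with 11 and rig with 2. The fourth, trr, had no reproducible summit but 1 in the top list of replicate 1. Of 13 genes for making, clearing and importing the hormone 4 were bound (30.8%), a share near that of all coding genes. These were Oatp74D, the ecdysone importer, with 7 summits, mld, a regulator of ecdysteroid synthesis, with 6, shd, which encodes the last hydroxylase of the pathway, with 3, and sro with 1. At sro a top-list summit was found in replicate 2 only. The 9 without a summit were nvd, spo, spok, phtm, dib, sad, Cyp18a1, Npc1a and ouib, of which 7 span 1252 to 7405 bp, while nvd (76790 bp) and spok (31677 bp) are long. Most of the 9 are known for their roles in the prothoracic gland, but mld and sro, also genes of hormone synthesis, were among the 4 bound. Whether the gland's small share of the larva matters here was not tested.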

How the data were processed

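ChIP-seq peak lists from 3 biological replicates of whole larvae were analysed. The authors deposited, per the labels and the notes that came with the lists, 30000 peaks for each replicate called against a control, 30000 pooled peaks, and a reproducible list derived from these. The peak signal value is a score of the authors with no stated scale. Aligner, peak caller and reproducibility threshold were not given in the sources used here. Read depth is unknown, so no interval that needs it is given.

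Summits on dm6 were assigned to genes of Ensembl release 115 (Python 3.11.15). Replicate ranks are those of the nearest replicate summit within 100 bp. Functions were tested on simulated positions and sequences. The members, the gene lists, the motifs and the rule for naming (all 8 genes, each gene's 3 strongest summits and any within 500 bp of an own start) were chosen with earlier results of these data known. Symbols of 4 listed genes were updated. Alternatives changed the gene window, promoter distance, motif window, part of the list, assignment and replicate left out.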

Additional observations from a re-analysis of the deposited data

How the results depend on the processing

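All 8 genes stayed bound under each alternative tried but one: among the 5116 peaks above the median signal value 7 were bound, without Hr39. The count of 54 summits fell to 32 in that stronger part of the list, and to 32 where a summit counted only if the nearest coding start was the member's own; it was 50 to 56 with other windows. In the stronger part genes with a bound start fell to 4, against 6 in the whole list, and counts fell to 10 at EcR, 3 at Hr3 and 3 at ftz-f1. Of 48 alternative counts of single genes, 10 were beyond 1.5 times the main count, all lower. Of the 54 summits, 94.4% lay inside a peak of all 3 full replicate lists. This is a looser measure than the summit within 100 bp used above, and its share over all summits was not computed. The mean rank of the strongest Hr3 summit was 6218 if taken from the strongest replicate peak holding it, an alternative chosen after seeing the data, against 3804.

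No paired analysis was possible because there was 1 group. With each replicate left out, the mean number of summits ranged from 57.5 to 60.0 and bound genes stayed at 8. Genes with a bound start ranged from 6.5 to 7.5, and the share near a start from 18.2% to 20.8%. Recovery then asked only for the remaining top lists, so it could not fall below the 79.6% for all 3. It ranged from 81.5% to 87.0%. The mean replicate rank of the strongest reproducible summit ranged from 60 to 62 at Eip78C, 134 to 145 at Hr4, 1316 to 1490 at EcR, 1854 to 2366 at usp, 2052 to 2364 at Hr38, 2477 to 3378 at ftz-f1, 2495 to 4610 at Hr3 and 5864 to 12535 at Hr39.

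Motif shares moved with the window. Within 50 bp they were, at receptor summits against all summits, 5.56% against 3.22% for class C, 18.5% against 10.4% for the N-box, 1.85% against 1.63% for AGGTCA, 14.8% against 13.5% for GAGAG and 5.56% against 7.27% for ACACTG. Within 200 bp they were 9.26% against 11.7% for class C, 14.8% against 20.2% for class A, 55.6% against 38.1% for the N-box, 9.26% against 7.05% for AGGTCA, 1.85% against 4.46% for DRE, 57.4% against 47.3% for GAGAG and 22.2% against 27.1% for ACACTG. At the 32 receptor summits in the stronger part of the list, within 100 bp, they were 6.25% for class C, 3.12% for class B, 6.25% for class A, 37.5% for the N-box, 9.38% for AGGTCA, 31.2% for GAGAG and 18.8% for ACACTG. Shares over all summits of that part were not computed, so these have no matching background. A wider window holds more sequence; other causes were not tested.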
